A study of Mus musculus with 13 samples.

Results

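Complex I, the NADH dehydrogenase of the mitochondrial inner membrane, is encoded by both genomes of the cell. The genes described here are all rows of the mouse kidney count table whose symbol begins with Nduf followed by a, ab, b, c, s or v and a number, and all rows named mt-Nd1 to mt-Nd6 or mt-Nd4l. The rule used names and no measured value. It found 44 of 35013 genes, 37 of them nuclear and 7 mitochondrial, and all 44 passed the filter on low counts. The study labelled newly made RNA of proximal tubule cells: a tamoxifen-dependent Cre recombinase driven by the Megalin (Lrp2) gene switched on the enzyme UPRT from 1 Uprt allele, UPRT put 4-thiouracil into RNA, and the tagged RNA was biotinylated, captured from whole-kidney RNA, enriched for poly(A) and sequenced. There were 4 libraries labelled Spns1 KO, 5 labelled WT and 4 labelled FeO, all from female mice whose age was not stated. Spns1 KO mice carried 2 floxed alleles of Spns1, a lysosomal transporter (Megalin3'Cre-Ert;Spns1 fl/fl;Uprt fl/+). WT mice carried the same Cre and Uprt alleles, and the labels call their Spns1 genotype WT where the methods describe Spns1 fl/+ animals. FeO mice had the WT alleles and received, per the labels, iron sucrose in 3 daily injections of 12 mg, a mass that the methods give as elemental iron, and were killed 1 week later. Per the methods, tamoxifen was given to every group. The labels do not say that each library came from its own animal, and p-values measure the spread between these libraries.

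The enzyme has an arm in the matrix, where NADH gives its electrons to a flavin and a chain of iron-sulfur clusters passes them to ubiquinone, and an arm in the membrane, which pumps protons. The 7 mt-Nd proteins form the core of the membrane arm, and nuclear core proteins, among them Ndufv1, Ndufv2, Ndufs1, Ndufs3, Ndufs7 and Ndufs8, carry the flavin and the iron-sulfur clusters of the matrix arm or build the ubiquinone pocket. The other nuclear genes encode accessory subunits needed for assembly and stability, except Ndufa4, whose protein is now assigned to complex IV. Proximal tubule cells reabsorb most of the filtered solute and depend on mitochondrial respiration for it.

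The mitochondrial sequences bear on how their counts read, so one is shown. mt-Nd3 lies on the mitochondrial genome at chrM:9459-9806 (GRCm38, plus strand). A stretch of chromosome 1, chr1:24612775-24613119, annotated as the unprocessed pseudogene Gm28438, repeats it: over 345 aligned bases the only difference is T3C (mt-Nd3 base first, counted from 1 at the 5′ end of the transcript), and mt-Nd3 has 3 bases more at its end. The first 60 bases of both transcripts follow, with the differing base in capitals.
mt-Nd3: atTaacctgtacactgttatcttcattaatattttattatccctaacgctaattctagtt
Gm28438: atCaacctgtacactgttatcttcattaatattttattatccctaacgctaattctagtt
Of the 31-base words of mt-Nd3, 98.1% also occur in Gm28438, and the count table gave Gm28438 between 66.8% and 83.2% of the counts of the pair. mt-Nd4l is identical to Gm10222 over 294 bases, yet Gm10222 had 0 counts in every library while mt-Nd4l had at least 53812. A fragment of mt-Nd4, Gm28439, holds 62.8% of the words of mt-Nd4 and also had 0 counts in every library. Reads from the shared stretch cannot be told apart by sequence, so the value of mt-Nd3 is uncertain. Among nuclear genes, Ndufb4 shares 19.1% of its words with Ndufb4c, which took 69.8% to 79.9% of the pair's counts, Ndufs5 shares 26.5% with Ndufs5-ps (0% to 63.2% of the counts), and Ndufa12 shares 20.2% with Ndufa12-ps (0% to 38.7%).

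The nuclear members moved together, so their promoters were searched for motifs known from genes of respiration. RefSeq promoter windows (GRCm38.p6, from 250 bases before to 50 after the start site) were matched by symbol for 33 of the 44 genes, in 35 windows, and both strands were searched. The windows shown hold the matches in capitals.
Ndufa11, NRF1 palindrome, chr17:56717677-56717736, plus strand: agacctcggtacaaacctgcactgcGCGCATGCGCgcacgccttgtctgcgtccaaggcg
Ndufs6, NRF1 palindrome with a free base, chr13:73328464-73328523, minus strand: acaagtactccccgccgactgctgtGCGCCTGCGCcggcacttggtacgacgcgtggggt
Ndufs6, YY1 core, chr13:73328433-73328492, minus strand: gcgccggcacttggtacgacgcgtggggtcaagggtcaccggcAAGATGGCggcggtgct
Ndufb8, YY1 core, chr19:44555393-44555452, minus strand: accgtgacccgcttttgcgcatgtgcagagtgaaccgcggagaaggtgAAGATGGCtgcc
Ndufs8, ETS core on the other strand, chr19:3912726-3912785, minus strand: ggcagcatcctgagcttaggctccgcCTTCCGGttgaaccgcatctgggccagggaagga
The NRF1 palindrome (the capitals of the Ndufa11 window) was in 1 of the 35 windows (2.86%) and in 0.971% of all 32851 promoter windows. With the fifth base left free, a form chosen after the first count and including it, it was in 8 windows of 7 genes (22.9%, against 4.6% of all windows): Ndufa5, Ndufa6, Ndufa8, Ndufa11, Ndufb4, Ndufs5 and Ndufs6. The YY1 core AAGATGGC was in 7 windows (20%, against 2.75%), each time 22 to 38 bases after the start site: Ndufa3, Ndufa9, Ndufb8, Ndufc1, Ndufs4, Ndufs6 and Ndufs7. The ETS core CCGGAAG, which GABPA also recognises, was in 4 windows (11.4%, against 8.86%). The estrogen-related receptor half-site TCAAGGTCA was in 0 of the 35 and in 0.423% of all windows. A match is a run of letters and was not tested for binding. The YY1 core contains ATG, the letters of a start codon. Whether its matches mark the start of translation was not tested. The share among all windows was not restricted to genes with a start codon in the window.

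Libraries held 23068023 to 71296474 counts, and 16468 genes were tested. Mitochondrial genes took 11.8% to 26.8% of the counts of a library. Spns1 itself was no lower than WT beyond the spread (log2 fold change −0.31 ± 0.18 SE, edgeR adjusted p = 0.225). It lay at 39, 44.5, 36.6 and 59 CPM (counts scaled to a common library size by TMM) in Spns1 KO replicates 1 to 4. WT replicates 1 to 5 lay at 57.2, 61.4, 57.6, 39.2 and 62.9 CPM. The overlap came from Spns1 KO 4 and WT 4, while Spns1 KO 1 to 3 lay below WT 1, 2, 3 and 5. Counts of a whole gene need not show the loss of a floxed exon, but the labels of the Spns1 KO libraries, above all replicate 4, and of WT 4 are not checked by these counts. All 10 proximal tubule markers were detected in every library. Their summed level was 12000 to 12400 CPM in Spns1 KO, 4170 to 5620 CPM in WT and 2860 to 10400 CPM in FeO, and 7 of the 10 were called higher in Spns1 KO and 3 higher and 1 lower in FeO. Kap made up much of the sum, with means of 4690 CPM in Spns1 KO and 943 CPM in WT and a range of 582 to 6730 CPM in FeO. In FeO 5 of the 10 log2 fold changes lay above 0 and 5 below (median −0.07), and in Spns1 KO 10 lay above 0 (median 0.96). Markers of other cells were also present in every library. Summed macrophage and leukocyte markers were at 72.3 to 84.9 CPM in Spns1 KO, 52.4 to 62.1 CPM in WT and 77.3 to 103 CPM in FeO, and erythroid markers at 51.4 to 174, 9.33 to 36.3 and 26 to 236 CPM. Fibroblast markers were at 118 to 163, 60.9 to 97.9 and 52.7 to 126 CPM, and podocyte markers at 234 to 297, 164 to 293 and 282 to 651 CPM. Markers of the loop, distal tubule and collecting duct were at 3410 to 4460, 1980 to 4470 and 2160 to 5520 CPM, and 3 of the 8 were called higher in Spns1 KO and 4 in FeO. The part of these shifts in the results below was not tested. In bulk RNA, fewer cells of a type and less RNA per cell cannot be told apart.

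The nuclear complex I genes were higher in both models. In Spns1 KO, 35 of 37 were called higher than WT and 0 lower, where a call needed an adjusted p under 0.05 and a log2 fold change beyond 0.5 in edgeR's quasi-likelihood fit. Across all genes tested, 14.0% were called higher and 7.55% lower in that comparison. The median log2 fold change of the 37 was 1.17 (range 0.43 to 2.25), against −0.05 for all genes. In FeO, 35 of 37 were again called higher and 0 lower, beside 22.4% higher and 19.7% lower among all genes. The median was 1.03 (range −0.18 to 1.71), against −0.01 for all genes. Every Spns1 KO library lay above every WT library for 33 of the 37 (13.1% of all genes), and every FeO library did for 29 (16.9% of all genes). None of the 7 mitochondrial genes was called in either comparison. Both comparisons use the same 5 WT libraries.

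**Figure D1:**
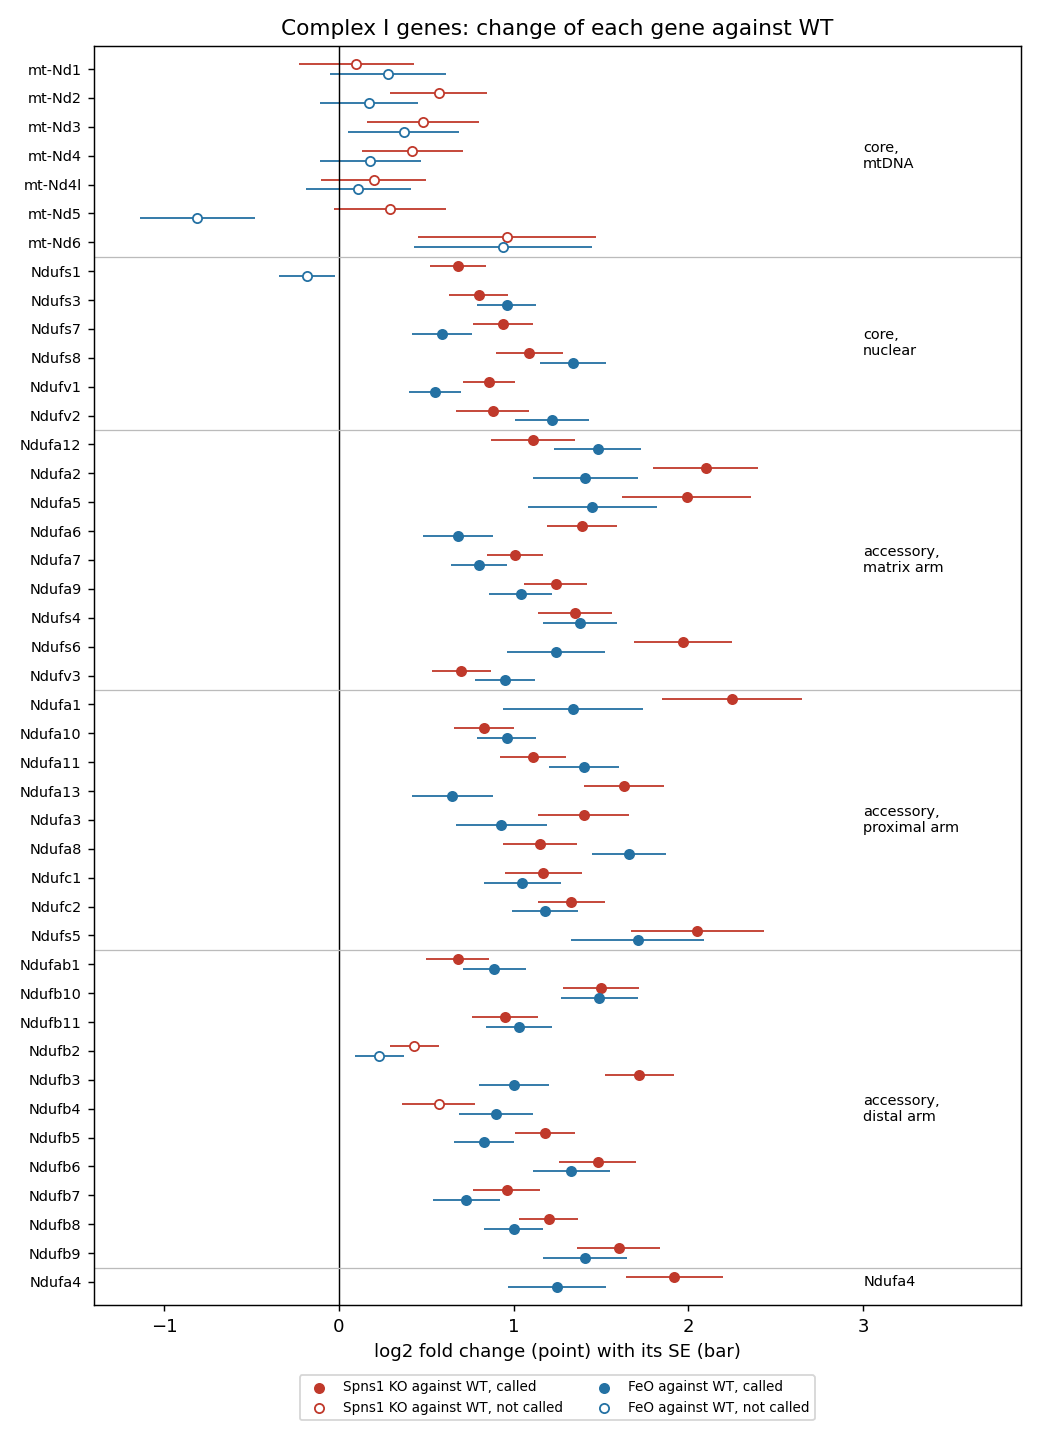
Log2 fold change (horizontal axis) of the complex I genes (1 gene left out) in Spns1 KO (red) and FeO (blue) against WT, grouped by role, with bars of 1 SE and filled points for called genes. All 7 mt-Nd points are open, while the nuclear points are filled except for Ndufb2 and Ndufb4 in red and Ndufb2 and Ndufs1 in blue.

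The libraries of a group did not move alike. Over the 37 nuclear genes, the library labelled Spns1 KO 4 was the lowest of its group for 35, and its median shift from the WT mean was 0.70 on the log2 scale, against 1.20 to 1.35 in the other 3. It stood above every WT library for 33 genes, while each of the other 3 did so for all 37. Among FeO libraries, replicate 2 was the lowest for 35 genes (median shift 0.52) and replicate 4 the highest for 20 (median shift 1.26). Without the library labelled Spns1 KO 4, 36 nuclear genes were called higher in Spns1 KO.

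The nuclear core subunits shared the rise in Spns1 KO and split in FeO. Of the 6 described here, 6 were called higher in Spns1 KO, with log2 fold changes from 0.68 to 1.09, and 5 in FeO, with 0.55 to 1.34. With a trend on transcript length and GC content removed, 4 of the 6 were called in Spns1 KO and 2 in FeO. Under that setting 10.7% and 20.6% of all genes were called higher, so the FeO count was near the background. Ndufv1, which binds NADH and the flavin, was at 125, 137, 125 and 88.2 CPM in Spns1 KO 1 to 4, at 77.5, 70.8, 60.8, 55.4 and 63.3 CPM in WT 1 to 5, and at 108, 83.9, 91.7 and 101 CPM in FeO 1 to 4. No library of either model overlapped WT (log2 fold change 0.86 ± 0.15 SE in Spns1 KO, edgeR adjusted p = 0.00161, and 0.55 ± 0.15 in FeO, adjusted p = 0.0102). Ndufs8, which holds iron-sulfur clusters next to the membrane, gave the highest log2 fold change of these 6 in both models. It was at 42.2, 48.7, 48.7 and 24.5 CPM in Spns1 KO, 21.2, 21.1, 16.3, 17.9 and 19.9 CPM in WT, and 57.2, 40.1, 51.1 and 46.9 CPM in FeO. It rose by 1.09 ± 0.19 and 1.34 ± 0.19 on the log2 scale in the respective models, and the library labelled Spns1 KO 4 stood barely above WT.

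Ndufs1, the largest subunit and the holder of several iron-sulfur clusters, behaved otherwise. It was at 249, 255, 237 and 184 CPM in Spns1 KO, at 147, 144, 147, 160 and 125 CPM in WT, and at 143, 96.6, 126 and 146 CPM in FeO. Spns1 KO libraries lay above all WT libraries, while the FeO libraries overlapped WT and lay below all Spns1 KO libraries. The log2 fold change was 0.68 ± 0.16 in Spns1 KO (edgeR adjusted p = 0.00724) and −0.18 ± 0.16 in FeO (adjusted p = 0.371, 95% interval −0.53 to 0.18). It was the only nuclear member with a negative estimate. Ndufs7, next to the ubiquinone pocket, rose by 0.94 ± 0.17 in Spns1 KO and by 0.59 ± 0.17 in FeO. Ndufs3, a matrix-arm scaffold, rose by 0.80 ± 0.17 and 0.96 ± 0.17, and Ndufv2, an iron-sulfur protein beside Ndufv1, by 0.88 ± 0.21 and 1.22 ± 0.21. Of the 5 core genes whose products hold iron-sulfur clusters (Ndufv1, Ndufv2, Ndufs1, Ndufs7 and Ndufs8), 5 were called higher in Spns1 KO and 4 in FeO.

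Accessory subunits of the matrix arm were called higher in 9 of 9 cases in both models, with median log2 fold changes of 1.35 in Spns1 KO and 1.24 in FeO. Ndufs6, a zinc-binding subunit, was at 51.3, 63.3, 59.1 and 49.5 CPM in Spns1 KO, at 17.4, 14.9, 11.9, 10.3 and 16.4 CPM in WT, and at 21.5, 19.4, 32.9 and 60.6 CPM in FeO. FeO 4 reached the Spns1 KO level and FeO 1 and 2 lay just above WT (1.97 ± 0.28 in Spns1 KO and 1.24 ± 0.28 in FeO). Ndufa5 followed the same order, with FeO 4 at 142 CPM, FeO 1 to 3 at 31.5, 26.6 and 58.1 CPM and WT at 18.2 to 27.1 CPM (1.99 ± 0.37 and 1.45 ± 0.37), and FeO 2 lay within the WT range. Without FeO 4 the FeO value was 0.74. Ndufa2 changed by 2.10 ± 0.30 and 1.41 ± 0.30.

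Ndufa12, a small matrix-arm subunit, had 1.11 ± 0.24 in Spns1 KO and 1.48 ± 0.25 in FeO, with 102 CPM in FeO 3 and 54.1 to 60.2 CPM in the other FeO libraries. Without FeO 3 the FeO value was 1.23. The difference between the models was not called (−0.38 ± 0.26, edgeR adjusted p = 0.325). The change of Ndufa12 was called in both models also with the counts of its copy Ndufa12-ps added. Ndufv3, a subunit beside Ndufv1, was among the lowest in Spns1 KO (0.70 ± 0.17), where 3 libraries lay at 54.6 to 56.2 CPM and the library labelled Spns1 KO 4, at 30.1 CPM, lay within the WT range of 28.2 to 32.6 CPM. Removing the length and GC trend left a Spns1 KO value of 0.32, not called. In FeO it was at 49 to 66.5 CPM (0.95 ± 0.17).

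Accessory subunits of the proximal membrane arm were also called higher in 9 of 9 cases in both models, with medians of 1.33 and 1.18. Ndufa1, a small single-span subunit, had the highest log2 fold change of all members in Spns1 KO, 2.25 ± 0.40 (edgeR adjusted p = 0.00153). It was at 39.2, 45.1, 39.7 and 34.1 CPM in Spns1 KO, at 8.88, 9.86, 6.74, 7.17 and 8.80 CPM in WT, and at 10.3, 7.98, 15.2 and 50.3 CPM in FeO. The Spns1 KO libraries stood well apart from WT, whereas the FeO estimate of 1.34 ± 0.40 rested on FeO 4, without which it was 0.45 and not called.

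Ndufa8, a cysteine-rich subunit on the intermembrane-space side, showed the opposite order. It was at 53.1, 54.6, 54.3 and 26.8 CPM in Spns1 KO, at 24.1, 20.1, 16.7, 20.7 and 24.5 CPM in WT, and at 70.1, 55, 84.1 and 59.1 CPM in FeO. All FeO libraries lay above all Spns1 KO libraries, although the log2 difference between the models, −0.51 ± 0.22, was not called (edgeR adjusted p = 0.118). Ndufs5, also on the intermembrane-space side, had the highest estimate in FeO, 1.71 ± 0.38, and 2.05 ± 0.38 in Spns1 KO. It was at 13.4, 37.6, 33 and 10.6 CPM in Spns1 KO 1 to 4, and was low in replicates 1 and 4, where the copy Ndufs5-ps took 1545 and 589 counts, against 2 and 0 in replicates 2 and 3. With the counts of the copy added, it was called in both models (1.5 and 1.3).

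Of the 11 accessory genes of the distal membrane arm, 9 were called higher in Spns1 KO and 10 in FeO, with medians of 1.18 and 1.00. Ndufb3 led in Spns1 KO (1.72 ± 0.20) with 54.5, 70.7, 58.3 and 46.4 CPM against 21.2, 19.3, 12.9, 15.2 and 18.5 CPM in WT, and FeO lay between them at 27.5, 24.9, 42.9 and 44.4 CPM (1.00 ± 0.20). Ndufb10 changed alike in both models (1.5 ± 0.22 and 1.49 ± 0.22). Ndufb7 had 0.96 ± 0.19 and 0.73 ± 0.19, both called, but 0.32 and 0.23 with the length and GC trend removed, neither called. Ndufab1, the mitochondrial acyl carrier protein, rose by 0.68 ± 0.18 and 0.89 ± 0.18, with the library labelled Spns1 KO 4 at 51.3 CPM inside the WT range of 47.6 to 55.2 CPM. Its Spns1 KO call was lost without any 1 of replicates 1, 2 or 3 of that group.

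The distal arm also held both genes not called in Spns1 KO. Ndufb2 was at 26.1, 28, 28.3 and 25.5 CPM in Spns1 KO, at 22.4, 19.9, 19.7, 17.8 and 20 CPM in WT, and at 21.2, 21.2, 21.7 and 29.9 CPM in FeO. Its Spns1 KO libraries lay above WT with an adjusted p of 0.0338 in edgeR, but the log2 fold change of 0.43 ± 0.14 was under the limit, and in FeO it was 0.23 ± 0.14 (adjusted p = 0.177). Ndufb4 had 0.57 ± 0.21 in Spns1 KO (edgeR adjusted p = 0.0602) and was called in FeO (0.90 ± 0.21). With the counts of Ndufb4c added, an alternative chosen after seeing the data, the Spns1 KO value was 0.74 and called. Removing the length and GC trend gave 0.09 for Spns1 KO and 0.36 for FeO, neither called. Ndufa4, outside complex I by current assignment, was called higher in both models (1.92 ± 0.28 and 1.25 ± 0.28), and its FeO libraries, at 40.7 to 156 CPM, overlapped WT at 32.6 to 43.1 CPM.

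**Figure D2:**
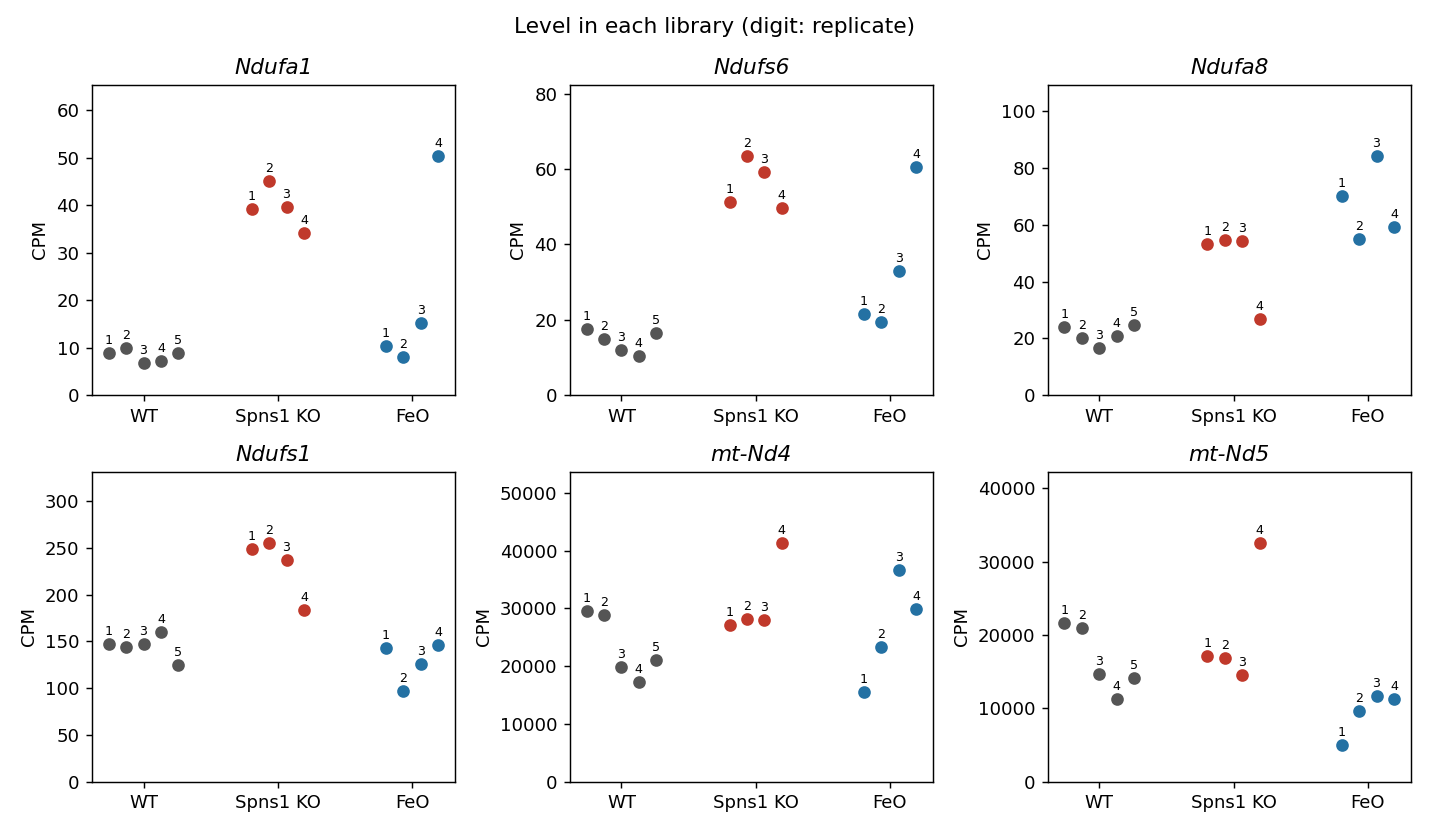
CPM (linear axes from 0) of 6 complex I genes in each of the 13 libraries, with replicate numbers. Ndufa1 and Ndufs6 were high in all 4 Spns1 KO libraries and in FeO 4, Ndufa8 was highest in FeO, Ndufs1 was raised in Spns1 KO alone, mt-Nd4 overlapped between the groups, and mt-Nd5 was low in FeO 1.

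The mitochondrial complex I genes did not separate the groups. In Spns1 KO the 7 log2 fold changes ran from 0.10 to 0.96 with a median of 0.42, and in FeO from −0.81 to 0.94 with a median of 0.18. At an unadjusted p under 0.05, 0 of 7 passed in Spns1 KO and 1 in FeO. By DESeq2 and limma-voom, 0 were called in Spns1 KO and 1, mt-Nd5, was called lower in FeO. mt-Nd4, the most counted of them, was at 27100, 28200, 28000 and 41300 CPM in Spns1 KO, at 29600, 28800, 19900, 17300 and 21000 CPM in WT, and at 15600, 23300, 36700 and 29900 CPM in FeO. The groups overlapped, and the spread within each was as wide as the distance between them (0.42 ± 0.29 and 0.18 ± 0.29, 95% intervals −0.24 to 1.07 and −0.48 to 0.83).

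The library labelled Spns1 KO 4 lay above every WT library for all 7 mt-Nd genes. Without it, the Spns1 KO median fell to 0.25 and the estimates for mt-Nd1, mt-Nd4l and mt-Nd5 turned to −0.10, −0.09 and −0.03. mt-Nd1, whose protein borders the ubiquinone pocket, had 0.10 ± 0.33 in Spns1 KO (95% interval −0.62 to 0.83) and 0.28 ± 0.33 in FeO, and the Spns1 KO value also turned negative with library totals as the only scaling (−0.02). mt-Nd2 had 0.57 ± 0.28 and 0.17 ± 0.28, and mt-Nd4l 0.20 ± 0.30 and 0.11 ± 0.30. mt-Nd3 had 0.48 ± 0.32 and 0.37 ± 0.32, and with the counts of Gm28438 added 0.65 ± 0.33 and 0.64 ± 0.33, not called (edgeR adjusted p = 0.171 and 0.129). mt-Nd6, the only mt-Nd gene on the minus strand (chrM:13552-14070), was the most variable, at 240, 110, 122 and 176 CPM in Spns1 KO, 151, 86.7, 32, 38.1 and 110 CPM in WT and 38.1, 110, 191 and 303 CPM in FeO. Its estimates of 0.96 ± 0.51 and 0.94 ± 0.51 were not called. Its gene overlaps mt-Nd5 by 14 bases on the other strand, and whether counting used strand is not given in the sources used here.

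mt-Nd5 was the exception in FeO. It was at 5030, 9580, 11700 and 11300 CPM in FeO, at 21600, 21000, 14700, 11300 and 14100 CPM in WT, and at 17100, 16800, 14500 and 32500 CPM in Spns1 KO. FeO 1 was lowest, FeO 3 and 4 met the lowest WT library, and all FeO libraries lay below all Spns1 KO libraries. Against WT the log2 fold change of −0.81 ± 0.33 missed the threshold (edgeR adjusted p = 0.0552), while it was 0.29 ± 0.32 in Spns1 KO (adjusted p = 0.533).

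Shares within a library need no scaling between libraries, and the share of each gene among the counts of the 13 mitochondrial mRNAs was computed after these values had been seen, as a description. mt-Nd5 (chrM:11742-13565, plus strand) took 9.83%, 10.3%, 11.1%, 9.94% and 9.33% in WT, while Spns1 KO 1 to 4 gave it 8.56%, 7.85%, 6.87% and 11.4%, and FeO 1 to 4 gave it 3.91%, 4.90%, 3.93% and 4.95%. Every FeO value was below every value of the other groups, while Spns1 KO overlapped WT. mt-Nd4 took 13.5% to 15.3% in WT, 13.2% to 14.5% in Spns1 KO and 11.9% to 13.1% in FeO. The complex IV gene mt-Co3 ran the other way, with 7.82% to 9.52% in WT and 9.92% to 13.6% in FeO. mt-Co1 took 17.3% to 21.4% in WT and 19.7% to 28.7% in FeO, which overlapped. The shares are parts of a whole, so a change in any gene shifts the shares of the others. The log2 fold change of mt-Nd4 in FeO was 0.18 ± 0.29 although its share was lower.

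**Figure D3:**
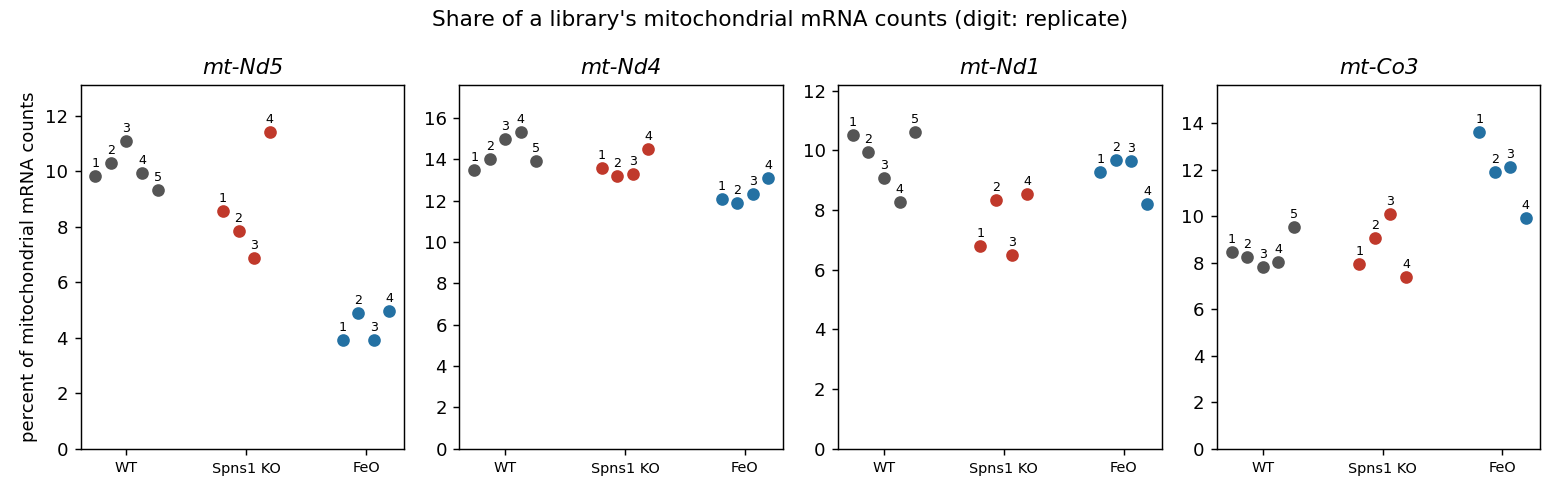
Percent of the counts of the 13 mitochondrial mRNAs taken by mt-Nd5, mt-Nd4, mt-Nd1 and mt-Co3 in each library (linear axes from 0, replicate numbers beside the points). The 4 FeO points for mt-Nd5 lie between 3.91% and 4.95%, below all other libraries.

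The contrast between the genomes can be read without scaling from the ratio of summed mt-Nd counts to summed nuclear complex I counts in each library. Its log2 value was 6.21, 6.18, 5.89, 5.58 and 5.79 in WT, for Spns1 KO 1 to 4 it was 4.90, 4.79, 4.73 and 6.05, and for FeO 1 to 4 it was 4.28, 5.46, 5.40 and 4.90. All FeO libraries and 3 of 4 Spns1 KO libraries lay below all WT libraries, and the library labelled Spns1 KO 4 lay within the WT range. The means were 5.93 ± 0.27 (SD, n = 5) in WT, 5.12 ± 0.63 (n = 4) in Spns1 KO and 5.01 ± 0.55 (n = 4) in FeO. The differences from WT were −0.81 and −0.92, so that the ratio was 0.57 and 0.529 times that of WT. Leaving out the library labelled Spns1 KO 4 made the Spns1 KO difference −1.12. The models differed by 0.11, within the spread of either, and by −0.20 to 0.26 when single libraries were left out. As a score over the members, the ratio was not tested. It was also not corrected for the trend on transcript length and GC content. With that trend removed, the median log2 fold change in Spns1 KO went from 1.17 to 0.80 for nuclear genes and from 0.42 to 0.34 for mt-Nd genes. In FeO these medians went from 1.03 to 0.67 and from 0.18 to 0.04.

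The lower ratio of both models came with a higher nuclear share of the counts. Its mean was 0.238% for Spns1 KO libraries and 0.212% for FeO libraries, against 0.116% for WT. The mean mt-Nd share of Spns1 KO libraries was 8.33%, above the WT mean of 7.19%, which by itself would raise the ratio. This excess rested on the library labelled Spns1 KO 4, at 11.7%. Spns1 KO 1 to 3 lay at 7.08%, 7.69% and 6.86%, within the WT range. The mean mt-Nd share of FeO libraries was 6.88%, slightly under the WT mean. The nuclear genes took 0.104% to 0.129% of the counts in WT, 0.176% to 0.278% in Spns1 KO and 0.158% to 0.267% in FeO, with no overlap with WT. The mt-Nd genes took 4.97% to 8.97% in WT, 6.86% to 11.7% in Spns1 KO and 4.42% to 8.20% in FeO, with wide overlap. The library labelled Spns1 KO 4 had both the lowest nuclear share and the highest mt-Nd share of its group.

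**Figure D4:**
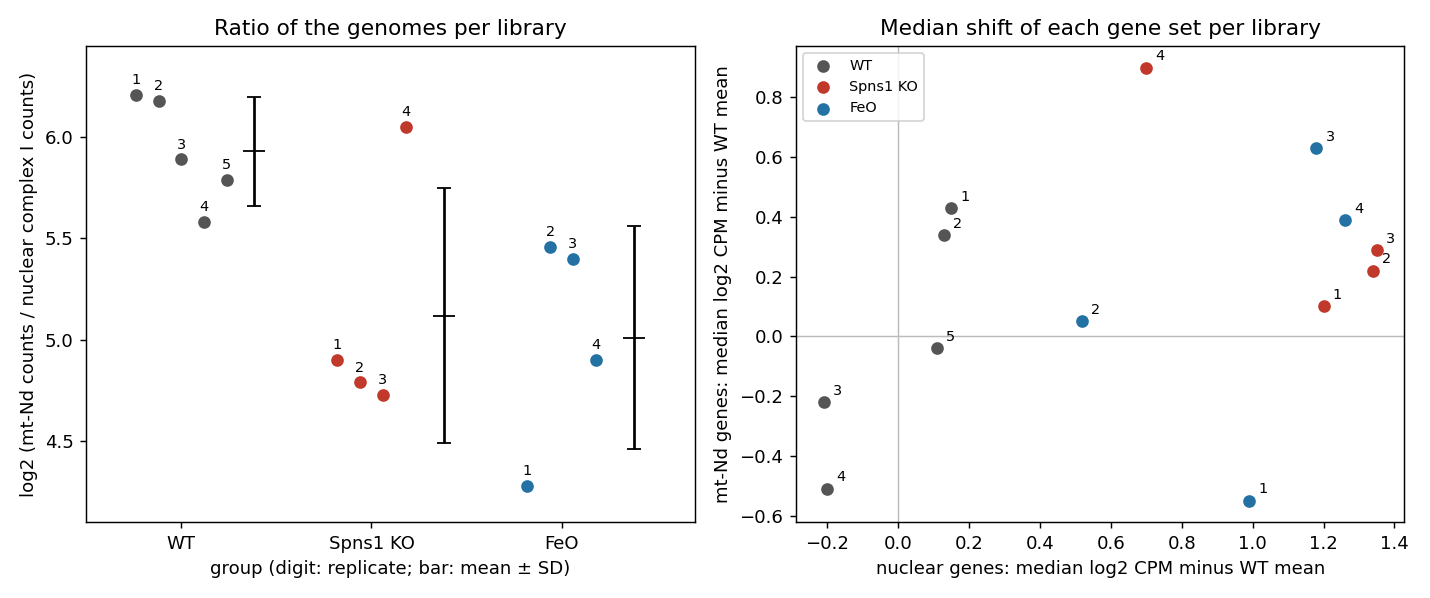
Left, log2 ratio of mt-Nd to nuclear complex I counts in each library, with the group mean and SD. Right, median log2 CPM shift from the WT mean over the 37 nuclear genes (horizontal axis) and the 7 mt-Nd genes (vertical axis). Nuclear medians of both models lie at 0.52 to 1.35, right of WT (−0.21 to 0.15), while mt-Nd medians overlap between the groups.

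Between Spns1 KO and FeO, 4 of 37 nuclear genes and 1 of 7 mitochondrial genes were called, all higher in Spns1 KO and 0 lower, beside 6.76% higher and 8.10% lower among all genes. They were Ndufs1 (log2 difference 0.85 ± 0.17, edgeR adjusted p = 0.0062), Ndufa13 (0.98 ± 0.24, adjusted p = 0.0159), Ndufa6 (0.71 ± 0.21, adjusted p = 0.0337), Ndufb3 (0.72 ± 0.21, adjusted p = 0.0359) and mt-Nd5 (1.11 ± 0.35, adjusted p = 0.0432). Ndufa13, also known as GRIM-19, was at 75.9, 85.7, 77.8 and 52.9 CPM in Spns1 KO, 28.5, 29.2, 20.5, 19.4 and 20.5 CPM in WT and 28.3, 31, 30.1 and 59.2 CPM in FeO. Only FeO 4 lay inside the Spns1 KO range, above Spns1 KO 4, and without FeO 4 the FeO change from WT was 0.36 and not called. Ndufa13 overlaps Tssk6 in the annotation. Ndufa6, a matrix-arm subunit, was at 106, 113, 121 and 106 CPM in Spns1 KO and at 53.4, 50.2, 68.1 and 101 CPM in FeO, all below Spns1 KO, with WT at 33.4 to 50.7 CPM. Without FeO 4 its FeO change from WT was 0.46 and not called.

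These calls between the models depended on single libraries. Leaving out 1 library at a time gave 1 nuclear call without FeO 1 and 10 without FeO 4, and 2 without any 1 of Spns1 KO 1, Spns1 KO 2, Spns1 KO 3 or FeO 2. mt-Nd5 lost its call in 9 of these 13 fits, where its difference lay between 0.78 (the library labelled Spns1 KO 4 left out) and 1.24. With the replicate number as a block, 2 nuclear genes and 0 mitochondrial genes were called.

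Transcript length moved with these changes. The nuclear members are short, with a median transcript of 971 bases against 3061 over the 16187 tested genes of known length, and over the 37 genes the log2 fold change fell with length (Spearman correlation −0.646 in Spns1 KO and −0.345 in FeO, as a description across genes of the same libraries). Over all genes the correlations were −0.401 and −0.442. Ndufa1, at 419 bases, had the highest Spns1 KO value and Ndufb2, at 4371 bases, the lowest. Lengths are those of the longest annotated transcript of a gene, protein-coding where available. This need not be the form that the tubule expressed, and values with the trend removed, such as that of Ndufb2, depend on it. After a fitted dependence on length and GC content had been removed from each library, 30 of 37 nuclear genes were called higher in Spns1 KO (10.7% of all genes) with a median of 0.80, and 22 of 37 in FeO (20.6% of all genes) with a median of 0.67. In Spns1 KO 29 of the 35 calls were kept, 6 were lost and Ndufb2 was gained (0.63). The lost ones were Ndufs3 (0.30), Ndufs7 (0.35), Ndufv3 (0.32), Ndufb7 (0.32), Ndufa7 (0.46) and Ndufb11 (0.44). In FeO 22 of the 35 calls were kept, 13 were lost and 0 were gained. The losses included the core genes Ndufs7 (0.10), Ndufv1 (0.19) and Ndufs3 (0.43), while Ndufs8 (0.80) and Ndufv2 (0.97) were called. They also included Ndufa1 (0.89), Ndufa6 (0.15), Ndufa13 (0.19), Ndufb3 (0.49), Ndufb4 (0.36) and Ndufb7 (0.23). The mt-Nd genes, of 297 to 1824 bases, have a median of 957 bases and were called higher in 0 of 7 cases under either setting.

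**Figure D5:**
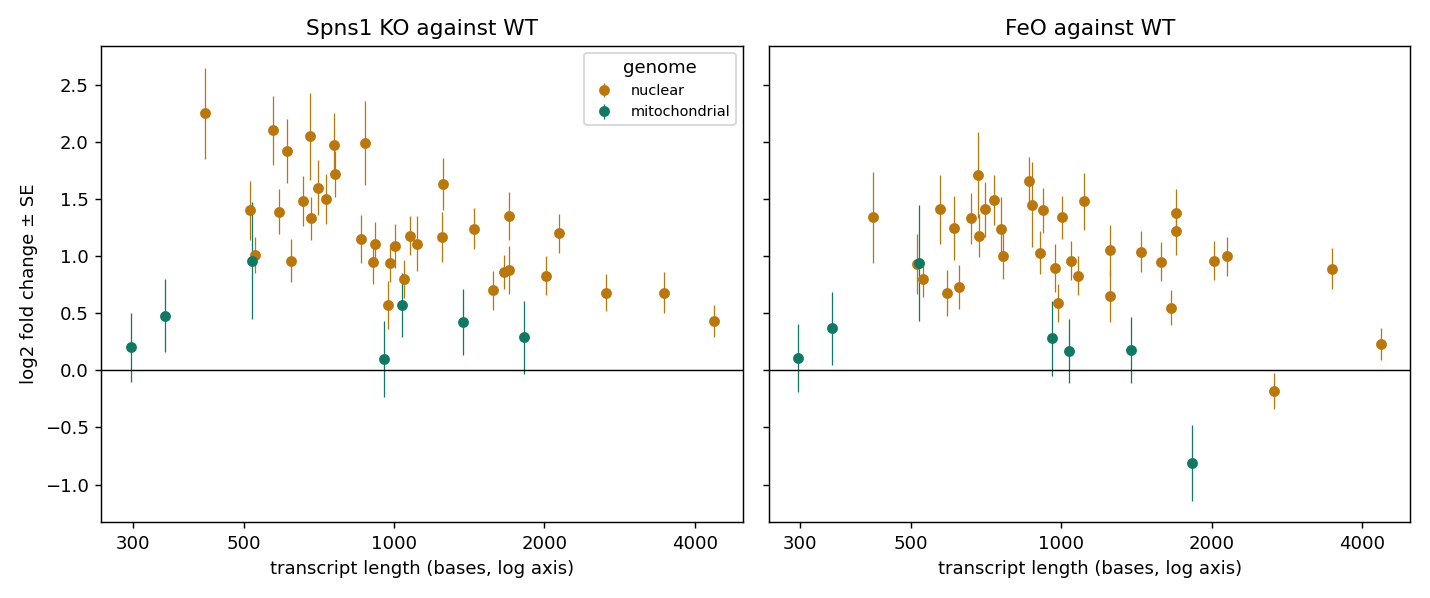
Log2 fold change with its SE against transcript length (bases, log axis) for nuclear (brown, 1 gene left out) and mitochondrial (green) complex I genes, in Spns1 KO (left) and FeO (right). Short nuclear genes reach the highest values, up to 2.25 in Spns1 KO, while mitochondrial genes of like length stay at 0.96 or below.

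Per kilobase of transcript, the genomes differed widely in level. In WT the mean level ran from 161 CPM per kilobase for mt-Nd6 to 16900 for mt-Nd1 and mt-Nd4, and from 4.57 for Ndufb2 to 71.9 for Ndufa6 among nuclear genes. mt-Nd4l (10900), mt-Nd2 (9430) and mt-Nd5 (9070) came next among the mitochondrial genes, and mt-Nd3 was at 775 CPM per kilobase without the counts of its copy. Of the nuclear core genes, Ndufs1 was at 54.3 and Ndufv1 at 39.5 CPM per kilobase in WT. In Spns1 KO the mean of Ndufs1 was 86.9 and in FeO 48.1 CPM per kilobase. These levels are the authors' gene counts over the longest annotated protein-coding transcript of each gene. Isoforms were not resolved, and a gene expressed in a shorter form reads too low.

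Assembly factors build complex I without being part of it. Of 17 assembly factors, 9 were called higher in Spns1 KO and 11 in FeO and 0 lower, with medians of 0.54 and 0.77, beside 14.0% and 22.4% called higher among all genes. Ndufaf8 (1.18 ± 0.20 and 0.77 ± 0.20), Ndufaf3 (0.95 ± 0.21 and 1.19 ± 0.21) and Ndufaf1 (0.65 ± 0.19 and 0.95 ± 0.19) were called in both models. Timmdc1 was called in FeO (1.03 ± 0.21, against 0.41 ± 0.21 in Spns1 KO), and the difference between the models was not called (−0.63 ± 0.22, edgeR adjusted p = 0.0643). Nubpl, which delivers iron-sulfur clusters to complex I, had 0.84 ± 0.17 (called) in Spns1 KO against 0.18 ± 0.17 (not called) in FeO, and this difference was called (0.66 ± 0.18, edgeR adjusted p = 0.0239). With the length and GC trend removed, 2 of the 17 assembly factors were called higher in Spns1 KO and 8 in FeO, where 10.7% and 20.6% of all genes were, so the Spns1 KO count was near the background.

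The other mitochondrial mRNAs, of complexes III, IV and V, were read in the same way. Of these 6, mt-Co2 was called higher in Spns1 KO (0.95 ± 0.33), and mt-Co1, mt-Co2 and mt-Co3 were called higher in FeO (0.83 ± 0.29, 0.96 ± 0.33 and 0.84 ± 0.28). Among all genes 14.0% and 22.4% were called higher, so the Spns1 KO count was near the background. With the length and GC trend removed, 0 of the 6 were called in either model. Not called in Spns1 KO were mt-Atp6 (0.58), mt-Atp8 (0.49) and mt-Cytb (0.61), whose FeO values were −0.02, 0.05 and 0.38.

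Genes that transcribe and maintain mitochondrial DNA were mostly not called. Polrmt, the mitochondrial RNA polymerase, had −0.01 ± 0.17 and −0.21 ± 0.17, and Tfam, the transcription factor that packages the genome, 0.01 ± 0.17 and 0.22 ± 0.17. Of the 17 genes of this list, 3 were called higher in Spns1 KO (Mrpl12, Ssbp1 and Mgme1) and 4 in FeO (the same 3 and Tfb1m), and 0 lower. Among all genes 14.0% and 22.4% were called higher, so both counts were near the background. Ssbp1 binds single-stranded mitochondrial DNA, Mgme1 is a nuclease of its replication and Mrpl12 is a protein of the mitochondrial ribosome. Of 16 genes of mitochondrial RNA processing and stability, 3 were called higher in each model and 1 lower in FeO (Fastkd3, −0.54 ± 0.17). The counts called higher were again near the shares of all genes, and 19.7% of all genes were called lower in FeO. Hsd17b10, a subunit of the mitochondrial RNase P, rose by 1.21 ± 0.21 and 1.32 ± 0.21, and Slirp, the partner of Lrpprc in stabilising mitochondrial mRNA, by 1.44 ± 0.27 and 1.45 ± 0.27. Lrpprc itself was called higher in Spns1 KO (0.51 ± 0.13) and had −0.30 ± 0.13 in FeO, a difference of 0.81 ± 0.14 between the models (edgeR adjusted p = 0.00417). Prorp, the nuclease of RNase P, was called higher in FeO (0.62 ± 0.19) and had −0.13 ± 0.19 in Spns1 KO, a difference of −0.74 ± 0.20 (adjusted p = 0.0257 in edgeR).

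Nuclear regulators of respiratory genes did not rise with the subunits. Of 12, 1 was called higher and 3 lower in Spns1 KO, and 1 higher and 7 lower in FeO, with medians of −0.43 and −0.55. Among all genes 14.0% were called higher and 7.55% lower in Spns1 KO, and 22.4% higher and 19.7% lower in FeO. Ppargc1a, the coactivator PGC-1alpha, was at 139 to 264 CPM in Spns1 KO, 288 to 432 CPM in WT and 159 to 195 CPM in FeO. No library of either model reached the WT range (−0.87 ± 0.20, edgeR adjusted p = 0.00615, and −0.93 ± 0.20, adjusted p = 0.00195). Esrra, the estrogen-related receptor alpha, was the gene called higher in both (0.53 ± 0.17 and 0.71 ± 0.17), but 0 of the 12 were called higher in Spns1 KO with the length and GC trend removed or with library totals as the only scaling. Nrf1 and Gabpa were called lower in FeO (−0.55 ± 0.16 and −0.54 ± 0.15) and not in Spns1 KO (−0.29 ± 0.16 and −0.31 ± 0.15), and the difference between the models was not called for either. Gabpb1 was called lower in Spns1 KO (−0.59 ± 0.19, edgeR adjusted p = 0.0369) and not in FeO (−0.42 ± 0.19, adjusted p = 0.0848). Its difference between the models was not called (−0.17 ± 0.20). Esrrb was called lower in Spns1 KO (−1.59 ± 0.25) and had −0.15 ± 0.24 in FeO, and the models differed (−1.44 ± 0.26, edgeR adjusted p = 0.00457). Ppara (−2.68 ± 0.45), Pprc1 (−1.41 ± 0.27) and Esrrg (−1.03 ± 0.23) were called lower in FeO and had −0.62 ± 0.42, −0.45 ± 0.26 and −0.63 ± 0.22 in Spns1 KO. Between the models Ppara and Pprc1 differed (2.06 ± 0.45 and 0.96 ± 0.28) and Esrrg was not called. With the length and GC trend removed 4 rather than 7 were called lower in FeO.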

How the data were processed

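RNA was measured in 13 libraries (4 Spns1 KO, 5 WT, 4 FeO), grouped by the labels. The deposited table holds estimated counts per gene that the authors made from paired-end reads, and they were rounded to whole numbers here. Per the labels' processing notes, bcl2fastq 2.19, kallisto 0.44.0, DESeq2 and GRCm38 were used, whereas the paper's methods describe genome alignment with STAR and counting with HTSeq. How reads shared by copies were assigned is thus unsettled. Counts were scaled by TMM, genes filtered with filterByExpr and 1 fit made over all groups with edgeR 4.0.16 (R 4.3.3) by glmQLFit and glmQLFTest, with Benjamini-Hochberg adjustment over the 16468 genes tested. Calls needed an adjusted p under 0.05 and a log2 fold change beyond 0.5. Intervals are 95%, from the SE with 10 residual degrees of freedom. The script was tested on simulated data. Log2 CPM used a prior count of 2. Transcript length, GC content (98.3% of tested genes matched) and copies (at least 10% of 31-base words) came from GENCODE M21, and promoters from RefSeq.

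Alternatives were other scalings, no filter, DESeq2 1.42.0, limma-voom (limma 3.58.1), a replicate block, only the groups compared, removal of a length and GC trend (mgcv 1.9.3) and leaving out each library. Adding the counts of pseudogene copies was chosen after seeing the data. The members, lists and tests were chosen with earlier results of these data known. Named were all mt-Nd genes, the nuclear core genes, the 4 highest and 4 lowest other nuclear genes in each comparison with WT and members called between the models. In the other lists the rule named at most 5 called genes a list, by p, and Polrmt, Tfam, Ppargc1a, Esrra, Nrf1 and Gabpa. Ndufs6, Ndufa4, Ndufa7, Ndufb11, Gabpb1 and the mitochondrial mRNAs not called were named outside this rule. Ndufb1 was not analysed here. One nuclear gene enters the fits, counts and sums but is not reported here.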

Additional observations from a re-analysis of the deposited data

Results flagged for a closer look

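Single libraries stood far from the others of their group in 8 of the 87 groups examined, where chance flags about 1 in 20 of independent groups. These groups are measures on the same 13 libraries and are not independent, so the 8 flags cannot be set against that rate. The library labelled Spns1 KO 4 accounted for 5 of them. It was high for mt-Nd4 (41300 CPM, against 27100 to 28200 in the other Spns1 KO libraries) and for the log2 ratio of mt-Nd to nuclear counts (6.05, against 4.73 to 4.90). It was low for Ndufa8 (26.8 CPM, against 53.1 to 54.6), Ndufab1 (51.3 CPM, against 88.5 to 95.3) and Ndufv3 (30.1 CPM, against 54.6 to 56.2). Its Spns1 level was also the highest of its group, at 59 CPM. In FeO, replicate 4 was high for Ndufa13 (59.2 CPM, against 28.3 to 31) and Ndufb2 (29.9 CPM, against 21.2 to 21.7), and replicate 3 for Ndufa12 (102 CPM, against 54.1 to 60.2).

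The test between the models gave differences for Ndufa13 (0.98), Ndufa6 (0.71), Ndufb3 (0.72), Ndufs1 (0.85) and mt-Nd5 (1.11), all as log2 of Spns1 KO over FeO.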

How the results depend on the processing

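Over the alternatives, 30 to 36 of the 37 nuclear genes were called higher in Spns1 KO and 22 to 35 in FeO, none lower in any of them. The lowest FeO count, 22, came with the length and GC trend removed, and leaving out single libraries gave 34 to 36 and 32 to 35. mt-Nd5 gave 1 mitochondrial call lower in FeO with library totals, DESeq2, limma-voom and the length and GC trend removed, and leaving out 1 library gave 0 to 1 lower and 0 to 1 higher. Between the models the 4 nuclear calls became 2 with the replicate block and 2 with only the groups compared, and 1 to 10 when 1 library was left out. The mitochondrial call became 0 with the replicate block, with only the groups compared and with no filter, and 0 to 1 when 1 library was left out. The difference in log2 ratio between Spns1 KO and WT was −1.12 to −0.68 when 1 library was left out, −1.12 being the value lacking Spns1 KO 4, that between FeO and WT was −1.07 to −0.67, and that between the models, which turned sign, −0.20 to 0.26. All genes called higher in Spns1 KO numbered 1531 without Spns1 KO 3 and 3003 without Spns1 KO 4, against 2307.

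Among single genes the sign turned for uncalled mitochondrial values: mt-Nd1 in Spns1 KO (−0.02 with library totals, −0.16 with the trend removed, −0.10 to 0.27 leaving out 1 library), mt-Nd4l in Spns1 KO (−0.04 with the trend removed, −0.09 to 0.33), mt-Nd4l in FeO (−0.02 with the replicate block, −0.04 with the trend removed, −0.10 to 0.35), mt-Nd4 in FeO (−0.02 to 0.38) and mt-Nd5 in Spns1 KO (−0.03 to 0.42). The cause was not tested. Same-numbered libraries share only a number: 4 of 12 pairs correlated above 0.1 (range −0.296 to 0.256), and with the replicate block 35 and 32 nuclear genes were called higher than WT.

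Library totals without factors moved the median of all genes in Spns1 KO from −0.05 to −0.18 and the higher share of its calls from 65.0% to 45.5% (45.5% to 33.9% between the models). Genes called lower in Spns1 KO numbered 1243, against 2086 with library totals, 793 with no filter and 754 with the trend removed, those lower in FeO 3252 against 2129 with the trend removed, and those between the models 1113 and 1334 against 441 and 599 with only the groups compared. With library totals 5 rather than 9 assembly factors were called in Spns1 KO and 5 rather than 3 regulators lower.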
